A study of Mus musculus with 2 samples.

Results

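The small leucine-rich proteoglycans examined here are 6 genes, Dcn (decorin), Bgn (biglycan), Lum (lumican), Fmod (fibromodulin), Prelp and Ogn (osteoglycin). They were chosen by name from the 18545 genes that the 2 raw count matrices of the series list, and all 6 stand in both matrices. Each gene was followed through every cell type that the authors annotated in the colon and the small intestine of the mouse. Levels in the endothelial types, LECs and BECs, served as the background that free RNA can leave in a droplet.

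Small leucine-rich proteoglycans are secreted proteins of the extracellular matrix, built from a core of leucine-rich repeats that folds into a curved solenoid. Many carry glycosaminoglycan chains, bind fibrillar collagen and set the width and spacing of its fibrils, and several also bind growth factors such as TGF-β or act on receptors at the cell surface. In the gut wall they belong to the matrix that fibroblasts of the mucosa and the submucosa lay down.

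The series holds 1 library from the colon and 1 from the small intestine of healthy, untreated mice. After removal of the epithelium, collagenase and dispase released the cells (60 min for the colon, 45 min for the small intestine), and a sort for viable cells lacking CD45 and CD326 took out immune and residual epithelial cells. About 16000 cells per library were loaded for droplet sequencing of the 3′ ends of polyadenylated RNA, in which each captured molecule is counted once by its unique molecular identifier (UMI). Strain, age, sex and number of animals are not stated in the labels. A tissue therefore cannot be told apart from its animals, their sex, the digestion or the library, and no test between tissues is possible. Every 95% interval below covers counting error only.

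The colon library holds 6018 annotated cells with a median of 6598 UMIs, and the small intestinal library 9359 cells with a median of 5943 UMIs. Types that reached 50 cells in both libraries were the 3 fibroblast subtypes (CD81- FBs, trophocytes and SEMFs), SMCs, LECs and BECs, where the colon BECs join 45 CapECs, 4 ArtECs and 4 VenECs. Pericytes (8 cells, labelled in the colon alone) and proliferating cells (4 in the colon, 24 in the small intestine) fell short and are not followed on their own. The libraries share 21 cell barcodes. In the colon, 2700 cells held Xist without Y-linked transcripts and 1751 held Y-linked transcripts without Xist, so that library holds cells of both sexes, whereas Xist is not listed for the small intestine, where 6896 cells held Y-linked transcripts. The defining markers were highest in the type that bears their name for 5 of 5 CD81- FB markers in the colon and 4 of 5 in the small intestine, and in both libraries for 6 of 7 trophocyte, 7 of 7 SEMF, 6 of 6 smooth muscle, 6 of 6 lymphatic and 6 of 7 blood endothelial markers. Small intestinal SMCs held another type's markers at a sum above that type's own: the CD81- FB markers reached 10147 CPM (UMIs per 1000000 UMIs of the type). They summed to 9881 CPM in the CD81- FBs themselves and 1835 CPM in colon SMCs. Of the 10147 CPM, Adamdec1 supplied 9211 CPM, against 8191 CPM in CD81- FBs. Fgfr2 (333 against 561 CPM), Sdc2 (428 against 548 CPM), Edil3 (53.8 against 268 CPM) and Col15a1 (121 against 314 CPM) were lower in SMCs. Values for SMCs are given with that limit. Other labels also held markers of other types. In colon SEMFs the CD81- FB markers summed to 5135 CPM, beside 5121 CPM of SEMF markers. Smooth muscle markers summed to 2412 CPM in small intestinal SEMFs. CD81- FB markers summed to 1947 CPM in colon BECs, and lymphatic markers to 1265 CPM in small intestinal BECs.

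The 6 genes lie at 4 places of the mouse genome (mm10, GENCODE models). Dcn (chr10:97479609-97518143) and Lum (chr10:97565128-97572703) are neighbours on the plus strand, 47.0 kb apart with no protein-coding gene between them. Fmod (chr1:134037254-134048277, plus strand) and Prelp (chr1:133910304-133921414, minus strand) are neighbours on opposite strands, 115.8 kb apart. Ogn (chr13:49608046-49624501, plus strand) closes a row of related genes, Ecm2, Aspn, Omd and Ogn, and Bgn (chrX:73483602-73495933, plus strand) stands alone among the members. RefSeq promoter windows (GRCm38.p6, the 250 bases before the start) were matched for Bgn, Ogn, Fmod and Prelp. The 2 windows below belong to Bgn, whose level differed little between the tissues in every fibroblast subtype, and to Ogn, which differed most in 1 of them. Capitals mark matches, on either strand, to any of 5 short motifs searched, namely TATAAA (the TATA box), GGGCGG (the GC box), AGGAAG (an ETS site), CAGCTG (an E-box) and TGACTCA (the AP-1 site).
Bgn: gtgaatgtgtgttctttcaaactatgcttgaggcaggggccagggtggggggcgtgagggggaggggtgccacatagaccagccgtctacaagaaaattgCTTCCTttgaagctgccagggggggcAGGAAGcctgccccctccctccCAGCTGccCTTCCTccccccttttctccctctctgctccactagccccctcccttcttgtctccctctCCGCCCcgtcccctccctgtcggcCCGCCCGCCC
Ogn: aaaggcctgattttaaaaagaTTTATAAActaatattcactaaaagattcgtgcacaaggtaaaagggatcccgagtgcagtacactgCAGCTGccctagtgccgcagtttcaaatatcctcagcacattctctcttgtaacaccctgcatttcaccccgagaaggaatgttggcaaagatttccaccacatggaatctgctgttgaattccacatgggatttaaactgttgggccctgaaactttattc
The Bgn window (chrX:73483351-73483600, plus strand) has a GC content of 64.4% and held the GC box at 3 positions, the ETS site at 3 and the E-box at 1, and 2 of the GC box matches overlap. The Ogn window (chr13:49607765-49608014, plus strand) has a GC content of 42.0% and held the E-box at 1 position. It held the TATAAA sequence at 2, -229 and -227 from the start, in overlapping matches on opposite strands. Whether either match acts as a TATA box was not tested. The Fmod and Prelp windows held none of the 5. Among 32851 mouse promoter windows of the same length, 32.7% hold the GC box, 29.5% the ETS site, 13% the E-box, 12.4% the TATA box and 4.46% the AP-1 site, so each match found is frequent among promoters at large.

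Dcn and Bgn belong to class I, whose core proteins carry chondroitin or dermatan sulfate chains. Dcn, which binds type I collagen and TGF-β, was highest in trophocytes, the Cd81-positive fibroblasts: summed over cells it reached 19280 CPM in the colon (95% interval 19172 to 19388) and, in the small intestine, 25673 CPM (25592 to 25754). CD81- FBs followed at 8400 and 13146 CPM, which puts trophocytes 2.30-fold and 1.95-fold above them. SEMFs, the fibroblasts with Foxl1, F3 and high Pdgfra, stood far lower in the colon, at 1314 CPM (1288 to 1340), than in the small intestine, at 5630 CPM (5573 to 5688). Trophocytes therefore lay 14.7-fold above SEMFs in the colon and 4.56-fold in the small intestine. Nearly every trophocyte and CD81- FB held a Dcn UMI in both tissues even after each cell was thinned to 2000 UMIs. Of colon SEMFs 70.6% did, against 98.6% of small intestinal SEMFs and, as background, 26.3% and 16.2% of LECs. The 1314 CPM of colon SEMFs lie above the 847 CPM of colon LECs but below the 1895 CPM of the 53 colon BECs, most of which come from 6 cells.

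Bgn, the class I relative that also acts as a ligand of Toll-like receptors when shed from the matrix, followed another order. It was highest in CD81- FBs, at 1771 CPM (1754 to 1788) in colon tissue against 1954 CPM (1935 to 1973) in small intestinal tissue, and trophocytes were 1.64-fold and 1.54-fold lower. Trophocytes and SEMFs of the colon, at 1080 CPM (1054 to 1106) and 1046 CPM (1023 to 1070), were not separated by their intervals. In the small intestine the SMC label, at 1191 CPM (1151 to 1232), and SEMFs, at 1154 CPM (1128 to 1181), were not separated either. Across the 3 fibroblast subtypes Bgn stayed between 1046 and 1954 CPM in both tissues, a narrower range than that of Dcn.

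Lum, Fmod and Prelp are class II members. Lum, a corneal and connective tissue proteoglycan that binds fibrillar collagen, followed Dcn: colon trophocytes held 1619 CPM (1588 to 1650) and small intestinal ones 2686 CPM (2660 to 2712), CD81- FBs 796 and 1139 CPM, and SEMFs 540 and 862 CPM. Trophocytes lay 2.03-fold above CD81- FBs in the colon and 2.36-fold in the small intestine. Over the 12 points formed by 6 types and 2 libraries, the log2 levels of Lum and Dcn had a Pearson r of 0.95, a description of points that share 2 libraries. The genes closest to Lum by the same measure were Lrp1 (r = 0.99), Irs2 (0.98) and Col1a2 (0.98), of which Lrp1 is an endocytic receptor and Col1a2 a chain of type I collagen. For Dcn they were Abca8a (0.97), Clec3b (0.96) and Thbs3 (0.96), and for Bgn Itgb5 (0.96), Bicc1 (0.96) and Gpx8 (0.95), out of 3605 genes that reached 100 CPM in at least 1 of the 12 points.

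**Figure D1:**
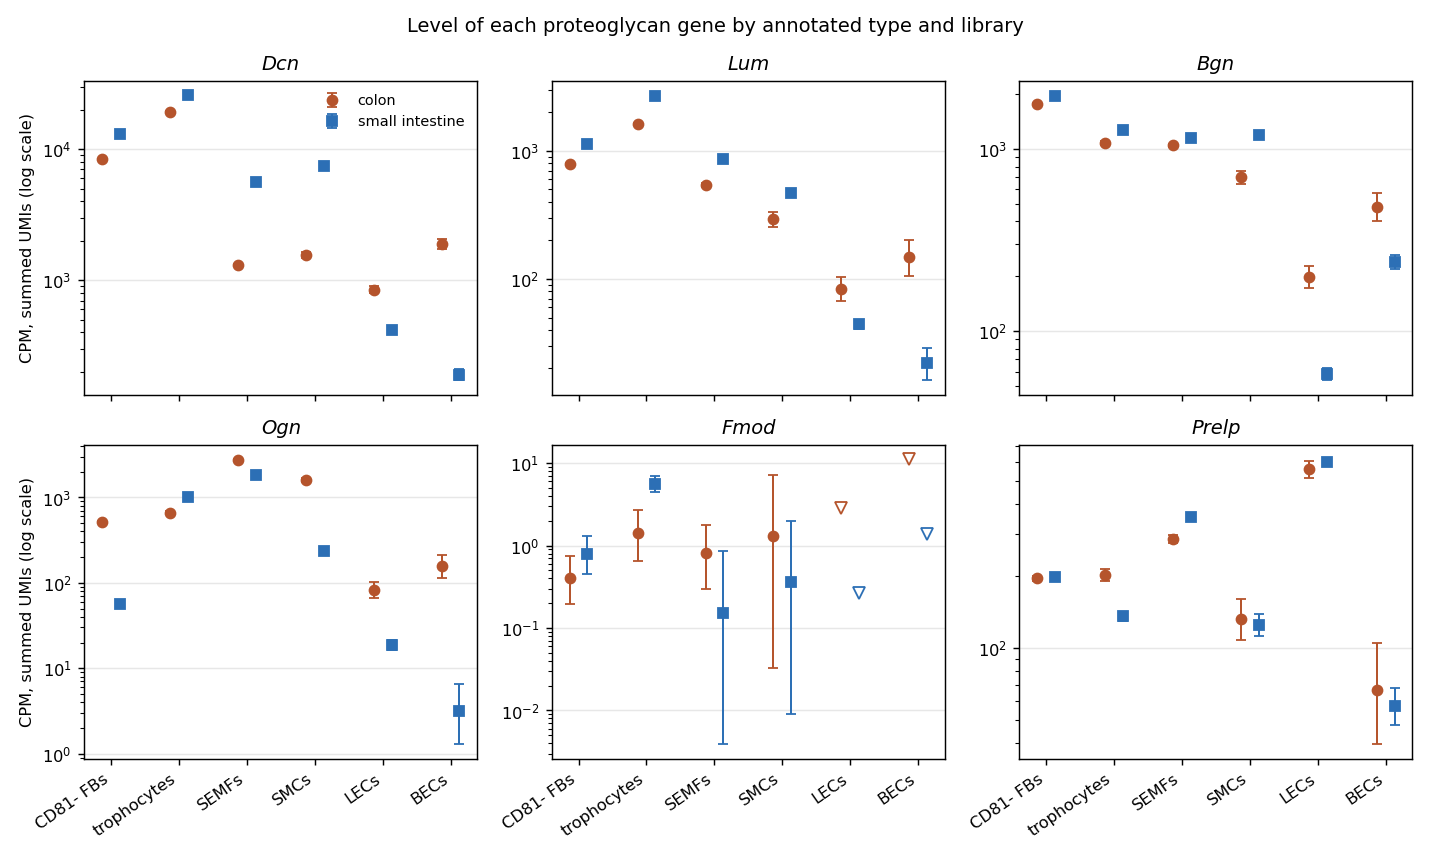
Level of each of the 6 genes in each annotated type, in CPM on a log scale, with colon as circles and small intestine as squares. Bars are 95% Poisson intervals (counting error only), and open triangles mark the upper limit where no UMI was found; Dcn and Lum peak in trophocytes, Bgn in CD81- FBs, Ogn in SEMFs and Prelp in LECs in both libraries.

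Fmod, a collagen fibril regulator of tendon and cartilage, was close to the limit of detection. The colon library held 26 Fmod UMIs in 17 cells and the small intestinal library 102 UMIs in 73 cells. Of the latter, 84 UMIs came from 58 trophocytes, 3.03% of that type, at 5.59 CPM, against 16 UMIs and 0.794 CPM in CD81- FBs, a 7.04-fold difference (log2 2.82, 95% interval 2.03 to 3.69). The colon trophocytes held 9 UMIs (1.41 CPM), 3.49-fold above the 10 UMIs of colon CD81- FBs (log2 1.80, 0.33 to 3.26), and were not separated from colon SEMFs with 6 UMIs. No LEC held an Fmod UMI: 0 of 217 cells in the colon, which allows a share of cells with a UMI of up to 1.38%, and 0 of 2498 in the small intestine, which allows up to 0.120%. BECs held none among 53 and 524 cells, which allows up to 5.66% and 0.573%. These limits concern cells with a captured UMI, not cells that express Fmod. Fmod-positive trophocytes of the small intestine, set beside the other trophocytes in a split chosen after the values were seen, had more Ogn (1484 against 993 CPM) and Prelp (208 against 133 CPM) but similar Dcn (25793 against 25669 CPM). Their lymphatic markers summed to 1004 CPM against 25.5 CPM, but 469 of their 477 marker UMIs were Ccl21a UMIs of 1 cell. That contrast therefore rests on 1 cell, and the part of that cell in the other differences was not tested.

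Prelp, which links basement membranes to the collagen beneath them through its heparan sulfate-binding amino terminus, was the only member led by a type other than a fibroblast. Colon LECs held 560 CPM (516 to 607), and small intestinal LECs 602 CPM (588 to 617). SEMFs came next at 286 and 354 CPM, and LECs were 1.96-fold and 1.70-fold above them. BECs, the blood vessel endothelium of the same libraries, held 66.7 and 57.0 CPM, so that LECs exceeded them 8.39-fold and 10.6-fold. A Prelp UMI was found in 88.5% of colon LECs and 85.6% of small intestinal LECs, against 7.55% and 12.2% of BECs. The median depth of BECs and LECs was 3821 and 4545 UMIs in the colon, and 3652 and 4118 in the small intestine. After thinning to 2000 UMIs the shares were 61.3% and 67.4% of LECs against 4% and 7.64% of BECs. Its profile over the 12 points had r between -0.29 and 0.09 with each other member. The nearest genes were Rnf13, Ctdspl and Gypc (r = 0.93 each), and Ctdspl, for one, stood at 235 and 286 CPM in LECs against 14.8 and 17.3 CPM in BECs of colon and small intestine.

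Ogn, a class III member whose product is also known as mimecan, was highest in SEMFs, at 2767 CPM (2729 to 2805) for the colon and 1838 CPM (1805 to 1871) for the small intestine. What lay below SEMFs differed between the libraries. In the colon CD81- FBs held 520 CPM (511 to 529) and trophocytes 666 CPM (646 to 686), a 1.28-fold step. In the small intestine CD81- FBs held 56.8 CPM (53.5 to 60.1) and trophocytes 1008 CPM (992 to 1024), a 17.8-fold step. SEMFs were 5.32-fold above CD81- FBs in the colon and 32.4-fold in the small intestine. The 3 genes with the profile nearest to Ogn were F3, Vgll3 and S100a6 (r = 0.89 each). F3, which encodes tissue factor, is one of the SEMF markers and had 630 CPM in SEMFs of the colon against 265 CPM in the other library's.

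All 6 members had their highest level in the same type in both libraries, and all 6 had the same leading fibroblast subtype. Of 11849 genes with at least 100 UMIs in each library, 46.1% share their leading type between the libraries and 62.9% their leading subtype. Fmod was not among those 11849, and its colon leader rests on 9 UMIs. Together the members made up 2.28% of all UMIs of colon trophocytes and 3.08% of those of small intestinal trophocytes. The share was 1.17% and 1.65% in CD81- FBs, 0.595% and 0.984% in SEMFs, and 0.177% and 0.114% in LECs. The make-up of that sum differed too. In colon SEMFs Ogn supplied 46.5% of the members' UMIs and Dcn 22.1%, whereas in small intestinal SEMFs Ogn supplied 18.7% and Dcn 57.2%. In LECs Prelp supplied 31.6% and 52.7%. These are shares of captured 3′ ends, which can be captured with unequal efficiency for different genes.

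**Figure D2:**
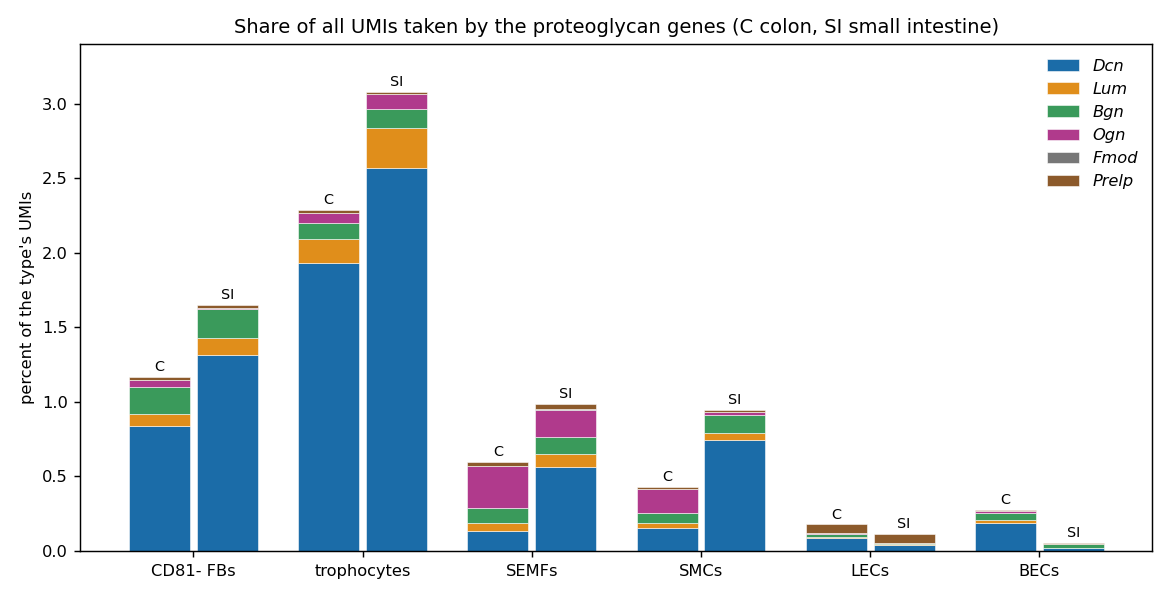
Share of all UMIs of a type that the 6 genes take together, in percent, 1 bar per library and type, divided by gene. Dcn makes up most of the trophocyte and CD81- FB bars, Ogn the largest piece of the colon SEMF bar, and Prelp the largest piece of the small intestinal LEC bar.

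Between the tissues, pooled fibroblasts of the small intestine held more Dcn and Lum than those of the colon. Dcn stood at 8830 CPM in colon fibroblasts against 16485 CPM, which is -0.90 (-0.91 to -0.89) as the log2 ratio of colon to small intestine. Lum had 882 and 1653 CPM, a ratio of -0.91. Bgn, at 1517 and 1581 CPM (-0.06), and Prelp, at 214 and 201 CPM (0.10), lay close together in both tissues. Ogn was higher in the colon, at 978 against 678 CPM (0.53). Fmod counted 25 UMIs in the colon and 101 in the small intestine, a ratio of -1.90 (-2.59 to -1.26). It was -1.15 with only the Xist-positive colon cells (20 UMIs, 1.09 CPM), while colon cells with Y-linked transcripts only held 5 UMIs (0.433 CPM). Over all alternatives, which include natural log values on another scale, the Fmod ratio ran from -2.48 to -0.0089. Fmod was the 1 member of 6 at least 2-fold apart, lower in the colon, where 9.47% of the 13307 genes with at least 100 UMIs were lower by that much, 6.88% higher and 16.4% apart in either direction. The median ratio over the members was -0.48, beside -0.17 over all those genes.

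The pooled values hide subtypes that went separate ways. In CD81- FBs, Ogn was 9.17-fold higher in the colon (log2 3.20, 3.11 to 3.28), and the means of the deposited natural log values, which are on another scale, differed by 1.02. It was the 1 member of the 5 with at least 100 UMIs to be 2-fold higher there, where 6.46% of genes were. In trophocytes, Ogn was lower in the colon (log2 -0.60, -0.65 to -0.55), and none of 5 members reached a 2-fold difference, against 12.5% of genes. In SEMFs it was higher in the colon again (0.59). The 1 member of 5 at least 2-fold lower in colon SEMFs was Dcn, 4.29-fold higher in the small intestine (log2 -2.10), where 15.1% of genes were 2-fold lower in the colon. With the LEC level of each library subtracted, that ratio was -3.48. Of the Dcn UMIs of colon LECs, 22 cells held 89.6%, so the level subtracted there rests on few cells. Dcn differed less in the other subtypes, with -0.65 in CD81- FBs and -0.41 in trophocytes. Markers of CD81- FBs, which hold more Dcn than SEMFs do, summed to 5135 CPM for colon SEMFs against 2804 CPM for small intestinal ones. The sum was thus higher in the colon, where Dcn was lower, and Adamdec1 supplied 4542 and 2302 CPM of it. Sdc2 (449 against 311 CPM) and Edil3 (6.45 against 4.91 CPM) were also higher in colon SEMFs. Fgfr2 (108 against 133 CPM) and Col15a1 (28.2 against 52.3 CPM) were lower. Markers of trophocytes, which hold the most Dcn, went the other way, at 41.4 CPM in colon SEMFs against 130 CPM in small intestinal ones. The part of either list of markers in the Dcn difference was not tested. Lum was lower in the colon by similar amounts in all 3 subtypes (-0.52 in CD81- FBs, -0.73 in trophocytes and -0.67 in SEMFs). Bgn stayed between -0.23 and -0.14 in the 3 subtypes, but relative to the median gene of each type its sign turned in CD81- FBs (0.080) and SEMFs (0.19). Prelp had -0.03 in CD81- FBs, 0.58 in trophocytes and -0.31 in SEMFs, the last of which was 0.026 relative to the median gene.

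**Figure D3:**
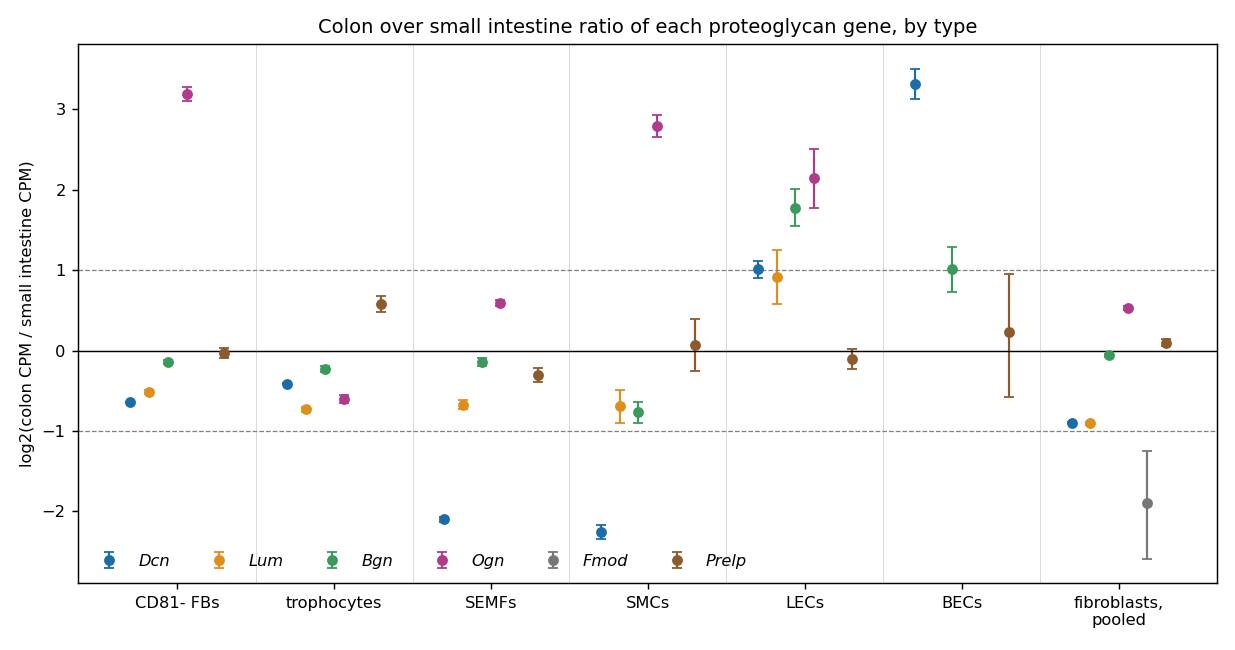
Log2 ratio of colon to small intestine for each gene in each type, with 95% conditional binomial intervals (counting error only); values above 0 are higher in the colon, dashed lines mark 2-fold, and points with under 100 UMIs are not drawn. Ogn has 3.20 in CD81- FBs and -0.60 in trophocytes, and Dcn has -2.10 in SEMFs.

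The Ogn difference in CD81- FBs was spread over many cells. An Ogn UMI was found in 68.0% of colon CD81- FBs and 19.7% of those of the small intestine, or 45.4% and 8.45% after thinning to 2000 UMIs, where LECs had 5.53% and 1.53%. The small intestinal share therefore lies above that of its LECs. In trophocytes the thinned shares were 54.7% in the colon and 77.0% in the small intestine, and in SEMFs 90.1% and 91.9%. At least 3 Ogn UMIs among 2000 were found in 13.3% of colon CD81- FBs (477 cells) and 0.758% (21 cells) of small intestinal ones. The 477 colon cells were set beside the 1964 with no Ogn UMI after thinning, a split chosen after the values were seen. The cells with Ogn held less Lum (489 against 952 CPM) and less Dcn (6863 against 9078 CPM), and similar Bgn (1785 against 1756 CPM) and Prelp (211 against 188 CPM). Their SEMF markers summed to 943 against 578 CPM, their smooth muscle markers to 243 against 111 CPM, their trophocyte markers to 501 against 1030 CPM and their CD81- FB markers to 7496 against 7337 CPM. The same split of colon trophocytes, 155 cells against 386, gave less Lum (1349 against 1893 CPM) and less Bgn (874 against 1226 CPM) beside more Dcn (20893 against 18632 CPM). Trophocyte markers summed to 4637 against 2841 CPM and smooth muscle markers to 55.1 against 135 CPM in these sets, and the part of any of these markers in the splits was not tested. In small intestinal trophocytes, 642 cells against 436, Lum was higher in the cells with Ogn (2826 against 2442 CPM), and so was Fmod (11 against 2.24 CPM).

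**Figure D4:**
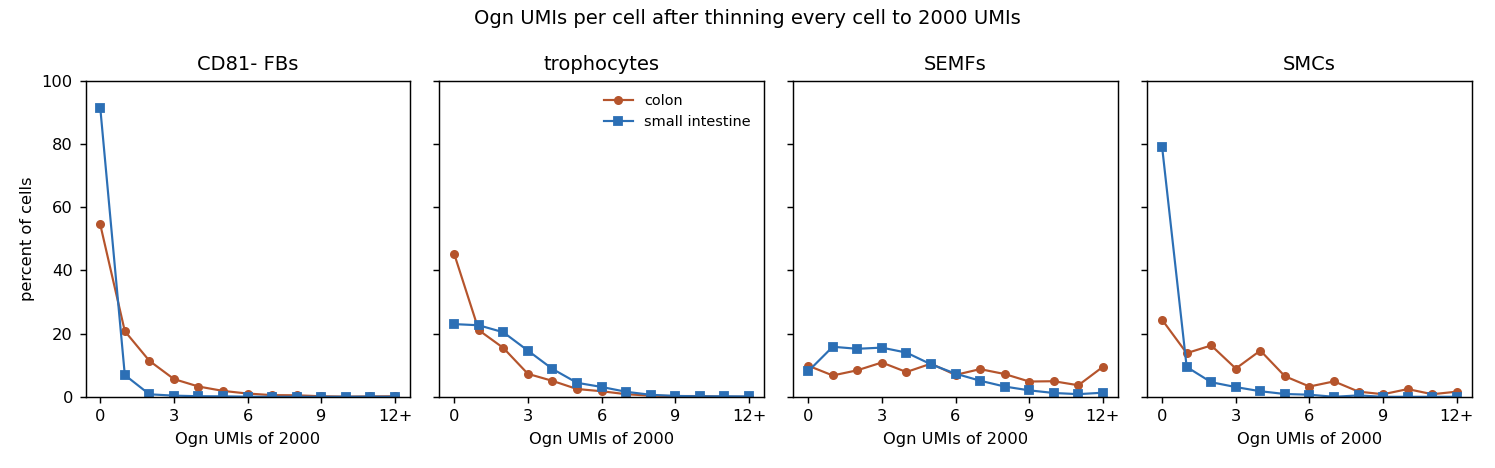
Distribution of Ogn UMIs per cell after thinning every cell to 2000 UMIs, as percent of cells, by type and library. Colon CD81- FBs reach 13.3% of cells with at least 3 UMIs where small intestinal ones reach 0.758%.

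The colon library allowed 1 further look, at cells with Y-linked transcripts only and cells with Xist only. Their fibroblasts differed by 0.06 for Dcn, 0.03 for Lum, -0.04 for the X-linked Bgn, -0.19 for Ogn and -0.22 for Prelp, as log2 ratios of the first to the second. Ogn in CD81- FBs had 496 and 550 CPM in these cells, so both lay far above the 56.8 CPM of the small intestine. In colon SEMFs Ogn had 2373 against 3058 CPM and in colon trophocytes 777 against 607 CPM. How many animals stand behind either set was not stated, and animals and sexes cannot be told apart here.

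SMCs of the colon had 1556 CPM of Dcn and those of the small intestine 7428 CPM, 4.77-fold more (log2 -2.25). With LEC levels subtracted, which rest on few cells, the ratio was -3.30. Ogn had 1617 against 233 CPM, 6.93-fold more in the colon (2.79). These were 1 of 5 members lower by at least 2-fold, where 17.3% of genes were, and 1 of 5 higher, where 3.37% were. CD81- FBs differed in the same direction, with 8400 against 13146 CPM of Dcn and 520 against 56.8 CPM of Ogn. SMCs held less Dcn than CD81- FBs in both libraries, and more Ogn. The small intestinal label is the one with the high sum of CD81- FB markers, most of it Adamdec1. The part of CD81- FB RNA in these ratios was not tested. Small intestinal SMCs were also divided into 3 equal sets by summed smooth muscle markers, a division chosen after the values were seen. Dcn was 10269, 8195 and 3499 CPM from the set with the lowest to that with the highest markers. Bgn was 1525, 1312 and 695 CPM, and Ogn 88.4, 125 and 511 CPM. In colon SMCs the sets held 2420, 1154 and 1062 CPM of Dcn and 1637, 1537 and 1672 CPM of Ogn. The sets with the most smooth muscle markers were thus closer between the tissues than the whole label, at 1672 against 511 CPM for Ogn and 1062 against 3499 CPM for Dcn. The small intestinal set still held 8234 CPM of CD81- FB markers (7527 CPM of it Adamdec1), against 1413 CPM in the colon set (998 CPM of it Adamdec1). The part of these markers was not tested.

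Endothelial cells held low levels of the fibroblast-led members, and few of their cells carried most of it. LECs of the colon had 847 CPM of Dcn against 420 CPM in the small intestine, and BECs 1895 against 190 CPM. The 10% of cells with the most Dcn held 89.6% of its UMIs in colon LECs (22 cells), 88.6% in small intestinal LECs (250 cells), 96.9% in colon BECs (6 cells) and 74.3% in small intestinal BECs (53 cells). A single colon BEC held 246 of the 511 Dcn UMIs of that type. Prelp was not so concentrated: the 10% of LECs with the most Prelp held 26.3% and 27.3% of its UMIs.

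Counted per 100 Dcn UMIs, Lum in LECs (9.87 in the colon, 10.5 in the small intestine) lay close to the same ratio in the types that are not endothelial (10.0 and 9.92). Ogn did as well, at 9.87 against 11.4 in the colon and 4.48 against 4.08 in the small intestine, although that ratio differs between the tissues. Bgn in LECs was 1.36 times and 1.41 times the ratio outside the endothelium. Prelp in LECs was 66.2 per 100 Dcn UMIs against 2.45 in the colon and 143 against 1.24 in the small intestine, 27.0 times and 115.5 times higher. In small intestinal BECs Bgn was 12.9 times the ratio outside the endothelium (126 against 9.79), and in colon BECs 1.47 times. Prelp was 24.2 times that ratio in small intestinal BECs (30.0 against 1.24) and 1.44 times in colon BECs. Bgn after thinning was found in 27.6% of small intestinal BECs and 4.89% of LECs of the same library, while in the colon the shares were 14% and 18.9%.

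**Figure D5:**
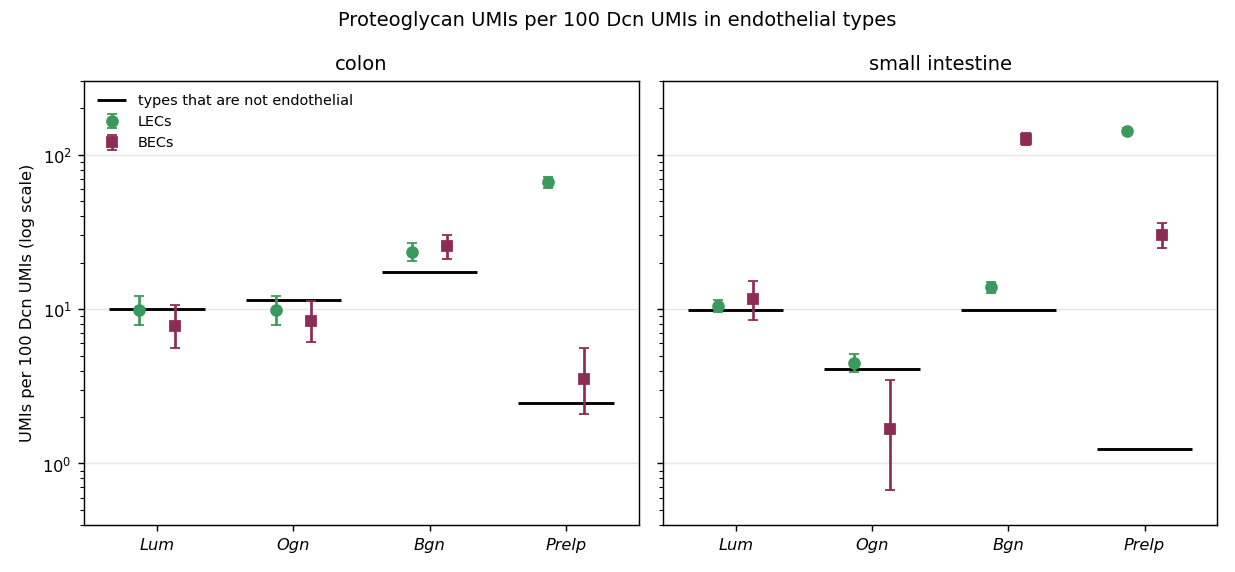
UMIs of Lum, Ogn, Bgn and Prelp per 100 Dcn UMIs, on a log scale, in LECs (circles) and BECs (squares) with 95% intervals for counting error, and in the types that are not endothelial (black lines). Lum and Ogn in LECs lie near the lines, whereas Prelp in LECs and Bgn in small intestinal BECs lie at 27.0, 115.5 and 12.9 times the lines, and Prelp in small intestinal BECs at 24.2 times.

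Among endothelial cells without a single Dcn UMI, a set chosen after the values were seen, LECs kept Prelp and lacked most Lum and Ogn. Prelp stood at 545.5 CPM in 121 such colon LECs and 620 CPM in 1710 small intestinal LECs, of which 88.4% and 86.1% held a Prelp UMI, whereas LECs with Dcn had 576 and 569 CPM. Bgn stood at 225 CPM in the 364 small intestinal BECs without Dcn, near the 239 CPM of all of them. In the 31 colon BECs without Dcn, Bgn was 66.8 CPM (8 UMIs) against 482 CPM in all 53. Those 31 cells held 0 Prelp UMIs, against 18 in the 22 colon BECs with Dcn. Small intestinal BECs without Dcn had 53.9 CPM of Prelp, 13.5 CPM of Lum and 4.25 CPM of Ogn. Those with Dcn had 62.7, 37.1 and 1.28 CPM. Lum in such LECs was 11 and 14.5 CPM, and Ogn 11 and 5.88 CPM. Prelp of small intestinal BECs, at 57.0 CPM, stands beside lymphatic markers summing to 1265 CPM in that label, against 29.7 CPM in colon BECs, and their part in it was not tested.

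The tissue ratios of endothelial types rest on these few cells. In LECs, 3 of 5 members were at least 2-fold higher in the colon (Dcn 1.01, Bgn 1.78 and Ogn 2.15 on the log2 scale), where 3.45% of genes were, and in BECs 2 of 3 (Dcn 3.32 and Bgn 1.01), where 3.1% were. Without the 6% of cells of each library with the highest doublet score, the Dcn ratio in LECs was -0.92, that of Bgn 0.63 and that of Ogn 0.19. The scoring marked 1 of 6018 colon cells as a doublet, so these ratios cannot be read as free of doublets. Without the 6% of cells with the most UMIs, the BEC ratios were -0.34 for Dcn and -1.83 for Bgn. CD81- FB markers summed to 764 CPM in colon LECs and 219 CPM in small intestinal ones, and to 1947 and 364 CPM in BECs. Adamdec1 supplied 522 and 108 CPM in LECs. In BECs it supplied 1287 and 86.2 CPM, and Col15a1 423 and 184 CPM. Of the single markers, only Fgfr2 in LECs was lower in the colon (72.3 against 87.9 CPM). The part of fibroblast RNA in these ratios was not tested. Prelp in LECs differed little between the tissues (-0.10).

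Of 11 further genes of the family, 9 are listed for both libraries, and Aspn, the closest in level to the members, showed an order of its own. Aspn (asporin), a class I member without the usual chain attachment that is separated from Ogn by Omd alone, was highest in SMCs, at 1185 CPM (colon) and 1290 CPM (small intestine). In SEMFs it stood at 881 and 210 CPM (log2 2.07), whereas in CD81- FBs it was lower in the colon, 505 against 855 CPM (-0.76), where Ogn was higher in the colon. Podn (podocan) had 335 and 139 CPM in SMCs, and 141 and 52.4 CPM in SEMFs. Ecm2, at the other end of the row on chromosome 13, had 187 CPM in LECs and 167 CPM in trophocytes of the colon, but 104 and 170 CPM in the small intestine. Per 100 Dcn UMIs Ecm2 in LECs was 28.7 and 35.5 times its ratio outside the endothelium, as Prelp was high there. Epyc, beyond Lum on chromosome 10, had 16 UMIs in colon trophocytes and 291 in those of the small intestine (log2 -2.95). In pooled fibroblasts 7 of the 11 passed 100 UMIs, 0 were 2-fold higher and 2 lower in the colon (Epyc -3.84 and Optc -1.19), with a median of -0.77. Of all genes 6.88% were higher and 9.47% lower by that much, with a median of -0.17.

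Of the enzymes that build the linker and the chondroitin sulfate backbone, 12 of 12 passed 100 UMIs in fibroblasts. Among them 1 was at least 2-fold higher in the colon, the chain polymerase gene Chsy3 (371 against 139 CPM, log2 1.42), and 1 lower, Xylt1 (-1.50), whose product adds the first sugar to the core protein, near the 6.88% and 9.47% of all genes. Chsy3 reached 803 CPM in colon SEMFs and 256 CPM in those of the small intestine. The epimerases and sulfotransferases that modify these chains (9 of 10) had none 2-fold apart, and a median of -0.19. Of the keratan sulfate enzymes 5 of 8 passed, with 1 higher and 0 lower, the former the sulfotransferase gene Chst1 (37.2 against 9.78 CPM, 1.93). The medians of the backbone and keratan sulfate lists, -0.09 and -0.06, lay near the -0.17 of all genes.

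The collagens and other fibril components that these proteoglycans bind were lower in colon fibroblasts on balance: of 13 passing, 0 were 2-fold higher and 4 lower, beside 6.88% and 9.47% of all genes, with a median of -0.59 beside -0.17. The 4 were Col14a1 (489 against 1182 CPM, -1.27), Col1a1 (1504 against 3426 CPM, -1.19), Col6a3 (446 against 1009 CPM, -1.18) and Col1a2 (1886 against 3852 CPM, -1.03). Col1a1 was highest in trophocytes of the small intestine, as Dcn and Lum were, at 5149 CPM against 1478 CPM in colon trophocytes. Col3a1 (-0.32), Col5a2 (-0.60), Col6a1 (-0.24), Col6a2 (-0.59) and the elastin gene Eln (-0.64) were lower by less, Fn1 (0.03) and Tnxb (0.01) were near 0, and Col12a1 was higher in the colon (0.83). Among proteases and their enhancers, 9 of 9 passed, 0 were higher and 2 lower, Tll1 (-2.29) and Mmp3 (-2.11), beside 9.47% of all genes lower. Tll1 had 0.415 and 2.04 CPM in fibroblasts against 138 and 419 CPM in LECs, and the part of LEC RNA in that ratio was not tested. The procollagen protease enhancer Pcolce (0.05) and Adamts1 (-0.49) were among the other 7. Of the receptors and ligands 9 of 11 passed, with Tgfb1 higher (1.15) and Tlr2 (-1.09) and Egfr (-1.004) lower, where 6.88% of all genes were higher and 9.47% lower. Kdr, which encodes a VEGF receptor, was found in endothelium, at 624 and 815 CPM in LECs and 920 and 441 CPM in BECs, and Lrp1 was highest in trophocytes at 548 and 586 CPM.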

How the data were processed

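UMI counts per gene and cell were deposited by the authors, raw, with 1 matrix per tissue, beside natural log values and a table of cell annotations. The submitters' processing notes name Cell Ranger 7.1.0, Seurat 4 and the mm10 build. The natural log values the authors deposited equal the log of 1 plus UMIs per 10000 of a cell's total, and served only as an alternative. Cells came with the authors' type labels, cells are not mapped to animals here, and cells were not treated as replicates.

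UMIs were summed per library and label and divided by the label's total to give CPM, with exact Poisson 95% intervals, shares with exact Clopper-Pearson intervals, and ratios with exact conditional binomial intervals. All intervals cover counting error only. The libraries sum to 40684070 UMIs in the colon (16381 genes listed) and 58134526 in the small intestine (18262 genes). Cells were thinned to 2000 UMIs where shares are compared, which kept 5949 of 6018 colon and 9016 of 9359 small intestinal cells (50 of 53 and 445 of 524 BECs). A gene was counted as different at a 2-fold ratio with at least 100 UMIs over both libraries. The interval code was tested on simulated data. Doublets were kept in the values given: Scrublet marked 1 colon cell (0.0166%), too few for its calls to be used there, and 85 small intestinal cells (0.908%). The alternative without high doublet scores still used its ranks, which left out 362 colon and 562 small intestinal cells. Motifs were searched in RefSeq windows on both strands, and 98.7% and 98.4% of the listed symbols matched GENCODE.

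The 6 members and the gene lists were chosen with earlier results of these data known. Named genes are the members, the family and pathway lists (the genes with the largest ratios and those with at least 500 CPM in any type, and all counted as 2-fold apart where 5 or fewer), and for each member the 3 genes with the highest Pearson r of log2(CPM + 10) over the 12 points. Alternatives were other cell sets, other totals and weights, subtraction of LEC levels, other thinning and UMI minimums, and the natural log values. Cell sets left out high doublet scores or the most UMIs, or kept cells with at least 3 UMIs of their own type's markers. Colon cells were also split by Xist and Y-linked transcripts. Splits by Ogn, Fmod, Dcn and smooth muscle markers were added after the data were seen. Python 3.11.15, numpy 2.4.6, scipy 1.17.1, pandas 2.3.3, scanpy 1.11.5 and matplotlib 3.10.9 were used.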

Additional observations from a re-analysis of the deposited data

Results flagged for a closer look

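Each of 5 members had types that pointed in opposite directions between the tissues, with 1 library each, so no difference below was tested. On the log2 scale of colon over small intestine, Ogn had 3.20 in CD81- FBs and -0.60 in trophocytes, a gap of 3.79. For Dcn the gap was 5.57, from 3.32 in BECs to -2.25 in SMCs. For Bgn it was 2.55, from 1.78 in LECs to -0.77 in SMCs. For Lum it was 1.65, from 0.92 in LECs to -0.73 in trophocytes. For Prelp it was 0.88, from 0.58 in trophocytes to -0.31 in SEMFs. The gaps of Dcn, Bgn and Lum each have an endothelial type at 1 end, where few cells hold most UMIs, and those of Dcn and Bgn have the SMC label at the other.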

How the results depend on the processing

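No paired analysis was possible because each tissue has 1 library and the labels carry no replicate numbers, and for the same reason no replicate could be left out. Over 39 log2 ratios between the tissues and 11 alternatives, 351 of 381 values had the sign of the value given and 24 ratios had 1 sign throughout. Of the other 30 values, 14 belong to 5 ratios whose own interval holds 0: Fmod in CD81- FBs and Prelp in CD81- FBs, SMCs, LECs and BECs (from 0.23 to -1.70 with colon cells limited to those with Y-linked transcripts only). The count of members at least 2-fold apart in fibroblasts was 1 throughout except after subtraction of LEC levels, where it was 3 (Dcn, Lum and Fmod). The median ratio of the members, -0.48, was -0.46 as the mean of single cells, -0.45 with totals free of mitochondrial, ribosomal and member genes, -1.01 after LEC subtraction (5 members, since Prelp has no positive value left), -0.39 with equal weight for subtypes, -0.31 relative to the median gene and -0.033 from the natural log values, which give no count of 2-fold members. On that natural log scale Ogn in CD81- FBs differed by 1.02. After LEC subtraction Dcn was -3.48 in SEMFs and -3.30 in SMCs, although few LECs hold most of the Dcn subtracted. Without the cells of highest doublet score, a score by which only 1 colon cell was called a doublet, Dcn (-0.92) and Lum (-0.68) turned in LECs. Without the cells with the most UMIs, Dcn (-0.34), Lum (-0.44) and Bgn (-1.83) turned in BECs. With the same Y-linked colon cells, Dcn (-1.11), Lum (-0.32) and Bgn (-1.76) turned in BECs and Prelp (-0.023) in fibroblasts. Bgn in BECs was -0.33 as the mean of single cells and -0.24 from the natural log values, and Prelp in fibroblasts was -0.0095 with equal weights. Relative to the median gene, Bgn was 0.080 in CD81- FBs, 0.19 in SEMFs and 0.11 in fibroblasts, and Prelp 0.026 in SEMFs. The cause was not tested. The count of members with the same leading type was 5 or 6 and changed for Fmod alone. Of 72 shares of positive cells, 54 moved beyond their interval without thinning and 50 at 1000 UMIs. The share of genes 2-fold apart in trophocytes was 20.7% with a minimum of 1 UMI in each library against 12.5%. Depth limits Fmod, which has 9 UMIs in colon trophocytes, and the 53 colon BECs.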
